A study of Homo sapiens with 6 samples.

Results

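The insulin-like growth factor (IGF) axis was described across 6 Affymetrix HG U133 Plus 2.0 arrays of Caco2 cells, a human colon cancer cell line. It was taken as 10 genes, namely the IGF binding proteins IGFBP1 to IGFBP7, the ligand IGF2 and the receptors IGF1R and INSR, out of 19775 genes with a probe set of their own on the array. The 10 genes were chosen by family membership from the array annotation, with resistant-against-parental values of the same arrays already known, so their values are given as a description. They had 29 probe sets, and every one was included. Total RNA came from 3 samples of parental cells, which were sensitive to methotrexate (MTX), and 3 samples of resistant cells, which grew in 10 µM MTX. MTX is an antifolate drug used against cancer. Parental cells were kept in Ham's F12 medium with fetal bovine serum, and resistant cells in a medium without glycine, hypoxanthine and thymidine (-GHT medium) with dialyzed serum. Resistance, MTX exposure and medium therefore cannot be told apart in any value below. The labels do not say whether the 3 samples of a group were separate cultures, and the spread behind each p-value, that among these samples, may be technical.

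IGF1 and IGF2 signal through the IGF1 receptor, a tyrosine kinase closely related to the insulin receptor, and IGF2 also signals through an isoform of the latter. Most extracellular IGF is held by the binding proteins IGFBP1 to IGFBP6, which prolong its life and limit or direct its access to the receptors, whereas IGFBP7 binds IGF only weakly. Activated receptors recruit IRS and SHC adaptors and, through PI3K and AKT, keep the FOXO transcription factors out of the nucleus. IGF2 is the IGF most often found raised in colorectal tumours.

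Signals are given as multiples of the array median, where 1 is the median over all probe sets of that array. Array medians lay between 10.6 and 12.8 signal units, and the number of arrays limits the precision. A probe set was tested with limma if its mean over the 6 arrays was 1 or more, which 26563 were, and a probe set was called when its adjusted p was below 0.05 and its change at least 2-fold. Pearson's r of log2 signal was 0.968 to 0.971 between resistant arrays and 0.966 between parental arrays 1 and 2. Parental array 3 stood apart, at 0.946 to 0.949 with the other parental arrays and 0.935 to 0.939 with the resistant ones, and for members values without it are given where they change a call. For the lists of other genes the counts without it are given. The epithelial identity of the cells was checked first. EPCAM read 298 to 330 on parental and 299.9 to 360 on resistant arrays, and CDH1, the gene of E-cadherin, 132.6 to 181 and 125 to 144. Of 9 epithelial markers 8 were tested and 4 rose, among them KRT20, a keratin of differentiated gut epithelium (log2 change 1.57 ± 0.24, SE, limma adjusted p = 0.0037), and VIL1, the microvillar protein villin (0.80 ± 0.13, limma adjusted p = 0.00504). At an unadjusted p below 0.05 in limma 4 were higher and 1 lower. The lower one, CLDN4, read 34.8, 29.0 and 34.1 on the parental and 21.5, 20.0 and 27.1 on the resistant arrays. Its change of -0.52 ± 0.16 did not pass (limma adjusted p = 0.0644). Over all genes with a tested probe set 7.37% were higher at an adjusted p below 0.05. The brightest probe set of CDX2, a gut transcription factor, stayed below the array median except on resistant array 1, where it read 1.14.

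Of the 29 member probe sets, 15, from 7 genes, passed the filter, and the other 14 were too dim to be tested. IGFBP1, IGFBP3 and IGFBP5 had no tested probe set. In the whole-table fit 3 member probe sets were called higher, the one of IGFBP2 and 2 of IGFBP7, and 0 were called lower (9 and 1 at an unadjusted p below 0.05 in limma), beside 2.77% and 1.9% of all tested probe sets. Counting the adjusted p alone, 5 member probe sets from 4 genes were higher, beside 5.75% among all tested, and 0 were lower. The resistant arrays all lay above the parental ones for 9 tested member probe sets and all below for 1, while 5 overlapped; over all tested probe sets these shares were 17.7% and 14.4%. The change was above 0 in 14 of the 15, with a median log2 change of 0.72 beside 0.00373 over all tested probe sets. A probe set that passed the filter only through the resistant group had to have its higher mean there. This applies to IGFBP2, to IGFBP7 and, with overlapping groups, to 207851_s_at of INSR. The choice of genes also used this contrast, so nothing is read from these counts.

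**Figure D1:**
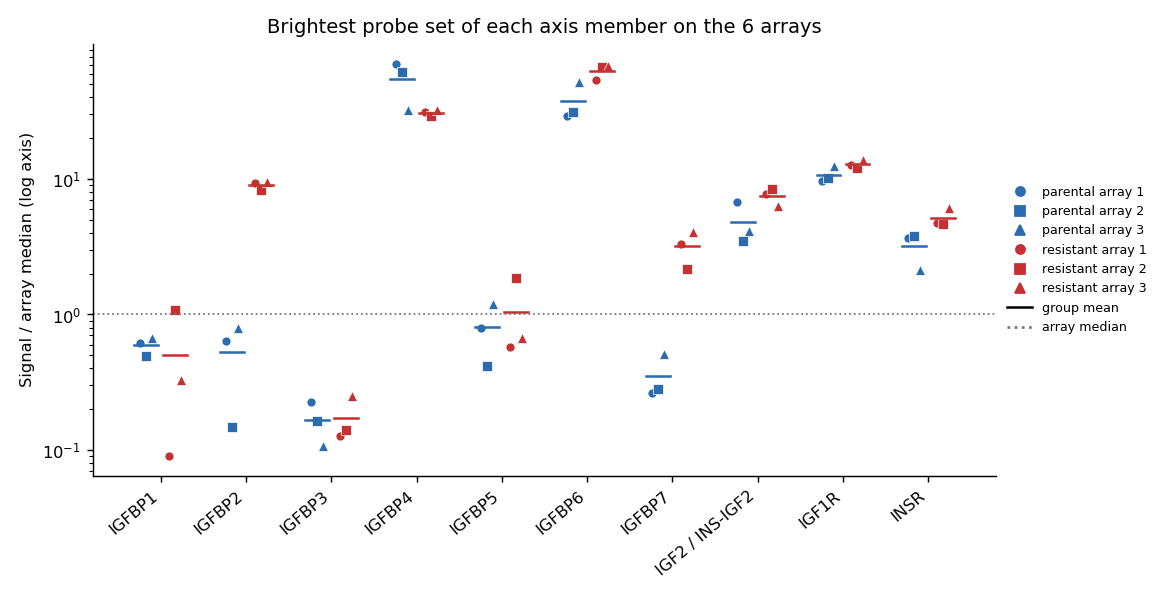
Signal of the brightest probe set of each of the 10 genes on the 6 arrays, as multiples of the array median on a log axis, with parental arrays in blue, resistant arrays in red and horizontal bars for group means (n = 3). IGFBP2 and IGFBP7 lie below the array median in all parental samples and above it in all resistant samples, IGFBP4 is the only one whose resistant arrays all lie below its parental arrays, and IGFBP1, IGFBP3 and IGFBP5 lie near or below the median in both groups.

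IGFBP2, a circulating and cell-surface binding protein, went from a dim to a clear signal. Its only probe set (202718_at) read 0.64, 0.15 and 0.80 in the 3 parental samples, in the order of their replicate numbers, against 9.36, 8.23 and 9.44 in the 3 resistant samples. All parental values lay below the array median, and the resistant values lay within a narrow range well above it. The group means were 0.53 ± 0.34 and 9.01 ± 0.68 (SD, n = 3), and the log2 change was 4.41 ± 0.54 (SE), or 21.3-fold. The size of this change depends on how the dim parental values are treated. It was 17.03-fold when signals below the 25th percentile of an array were raised to it, 9.63-fold when 0.5 array medians were added before the log, 12.6-fold without parental array 2 and 29.2-fold without parental array 3. Called higher in 14 of 15 alternative fits, IGFBP2 was not past the threshold in the methods' t-test. All 15 fits gave a change above 0.

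IGFBP7, the low-affinity member of the family that is secreted into the matrix, also stood higher in the resistant cells. Probe set 201163_s_at read 0.26, 0.28 and 0.51 on the parental arrays and 3.32, 2.16 and 4.09 on the resistant arrays. The groups were far apart, with resistant array 2 the lowest of its group. The log2 change was 3.20 ± 0.47 (SE), or 9.19-fold. Probe set 201162_at gave a like pattern with a wider spread. It read 0.16, 0.20 and 0.15 against 2.35, 0.74 and 2.47, a log2 change of 3.25 ± 0.81. Resistant array 2 was again the lowest, and here it lay below the array median. The third probe set, 213910_at, lay between 0.018 and 0.13 on every array. With 0.5 array medians added, the folds of the tested pair fell to 4.26 for 201163_s_at and 3.26 for 201162_at. The call of 201163_s_at was lost in the methods' t-test, and it was not tested under the filter at 3 array medians. That of 201162_at held in 7 of 15 alternative fits, and it was lost when parental array 1 or any resistant array was left out and in the methods' t-test.

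IGFBP6, which prefers IGF2 over IGF1, was bright in both groups. Its probe set (203851_at) read 29.4, 31.0 and 52.3 on the parental arrays and 53.5, 67.5 and 68.1 on the resistant arrays. The lowest resistant value lay just above parental array 3. The log2 change was 0.79 ± 0.21 (SE), a 1.73-fold difference that was past the adjusted p but not the fold threshold. It was no longer past the adjusted p in 11 of 17 alternatives, among them each fit that left out parental array 1 or 2 or any resistant array. Without parental array 3 the change was 1.05 ± 0.13 and the probe set was called higher.

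IGFBP4, which binds both IGFs and is cleaved by the protease PAPPA, was the only member with a tested change below 0. It read 71.1, 61.3 and 32.5 on the parental arrays and 31.1, 29.3 and 32.3 on the resistant arrays (probe set 201508_at). Parental arrays 1 and 2 stood well above the rest, whereas parental array 3 read almost the same as resistant array 3. The log2 change of -0.76 ± 0.25 (SE) was not called. Without parental array 3 it was -1.10 ± 0.12, a 2.14-fold lower level, and was called lower.

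The other binding proteins were dim. IGFBP1, an insulin-repressed hepatic protein, read 0.49 to 0.67 on parental arrays and 0.090, 1.08 and 0.33 on resistant arrays 1, 2 and 3 with its brighter probe set (205302_at). The groups overlapped, and the other IGFBP1 probe set did not exceed 0.17. IGFBP3, the main IGF carrier in serum, lay between 0.036 and 0.31 with both its probe sets, below the array median on every array. IGFBP5, a binding protein with strong affinity for matrix, had 6 probe sets that read 0.026 to 1.86, with 5 of 36 values above the median. For 1 of the 6, 203426_s_at, the resistant arrays (0.86, 0.42 and 1.09) lay above the parental arrays (0.081, 0.30 and 0.080), while the groups overlapped for the other 5. The table holds no detection calls, and these low values say only that the signal was dim.

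IGFBP2 and IGFBP5 are immediate neighbours on chromosome 2, with 0 genes between them in RefSeq (GRCh38.p14), as are IGFBP1 and IGFBP3 on chromosome 7. Of the 5 nearest tested genes on either side of IGFBP2, a window added after the values were seen, MREG (0.64 ± 0.17, limma adjusted p = 0.0444) and SMARCAL1 (0.93 ± 0.18, limma adjusted p = 0.0123) were past the test as higher and 0 of the 10 as lower (4 and 0 at an unadjusted p below 0.05), with changes from -0.54 to 1.35. Around IGFBP7 0 of 10 such genes passed the test in limma in either direction (0 higher and 1 lower at an unadjusted p below 0.05), and their changes ran from -0.50 to 0.37. Over all genes with a tested probe set, 7.37% were higher and 5.05% lower at an adjusted p below 0.05. The share at an unadjusted p is not given here, and nothing is read from these small counts.

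The 250 bases before the start site were read from RefSeq (GRCh38.p14) for 7 of the 10 genes, 9 windows in all. Shown are the most GC-rich of 3 windows of IGFBP2 (chr2:216633170-216633419, plus strand) and the window of its neighbour IGFBP5 (chr2:216695550-216695799, minus strand), since IGFBP2 was called higher and the probe sets of its neighbour were too dim to be tested. Those of the bright members with opposite changes, IGFBP6 (chr12:53097417-53097666, plus strand) and IGFBP4 (chr17:40443200-40443449, plus strand), follow. Each is written 5′ to 3′ on the strand of its gene. Capitals mark matches on either strand to any of 4 motifs. The GC box, which SP1 binds, was searched as GGGCGG, and the TATA box, where the general transcription machinery can assemble, as TATAAA. For the E box, a site of basic helix-loop-helix factors, the letters were CACGTG, and for the forkhead site, which FOXO factors bind, they were GTAAACA.
IGFBP2: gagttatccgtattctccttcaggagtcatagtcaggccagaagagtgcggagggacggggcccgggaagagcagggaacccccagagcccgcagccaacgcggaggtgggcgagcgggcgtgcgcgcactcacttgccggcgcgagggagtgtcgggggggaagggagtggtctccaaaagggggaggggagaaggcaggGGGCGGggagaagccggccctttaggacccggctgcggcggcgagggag
IGFBP5: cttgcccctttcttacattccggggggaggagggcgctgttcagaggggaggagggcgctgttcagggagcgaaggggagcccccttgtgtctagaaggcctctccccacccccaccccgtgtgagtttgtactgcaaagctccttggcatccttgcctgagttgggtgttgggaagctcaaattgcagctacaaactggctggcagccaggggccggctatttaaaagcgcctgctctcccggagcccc
IGFBP6: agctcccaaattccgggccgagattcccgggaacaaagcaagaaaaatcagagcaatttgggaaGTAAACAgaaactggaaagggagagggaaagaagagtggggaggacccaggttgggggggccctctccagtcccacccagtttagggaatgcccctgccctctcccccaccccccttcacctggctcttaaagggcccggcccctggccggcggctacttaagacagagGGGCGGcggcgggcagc
IGFBP4: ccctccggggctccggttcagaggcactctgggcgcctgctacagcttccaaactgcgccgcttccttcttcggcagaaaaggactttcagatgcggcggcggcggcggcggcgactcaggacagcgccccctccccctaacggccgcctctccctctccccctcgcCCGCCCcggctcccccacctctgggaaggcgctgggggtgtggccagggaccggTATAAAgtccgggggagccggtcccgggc
The IGFBP2 window was 69.2% GC and held 1 GC box, and the IGFBP5 window was 61.2% GC and held none of the 4 motifs. The IGFBP6 window held 1 GC box and 1 forkhead site, and the IGFBP4 window 1 GC box and 1 TATA box. Of 35116 promoter windows of the same length, 42.6% held a GC box, 10.7% a TATA box, 6.34% an E box and 2.98% a forkhead site. The receptor windows were the richest in GC, with 81.2% and 2 GC boxes for IGF1R and 78.4% and 4 overlapping or neighbouring GC boxes for INSR. A match is only a run of letters and was not tied to any of the changes.

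The ligand was measured by 3 probe sets that the annotation assigns to both IGF2 and the read-through gene INS-IGF2, so the source of their signal cannot be told apart. The brightest (202409_at) read 6.76, 3.47 and 4.11 on the parental arrays and 7.71, 8.42 and 6.33 on the resistant arrays. Parental array 1 lay above the lowest resistant value, so the groups overlapped. The log2 change was 0.70 ± 0.25 (SE), a 1.62-fold difference that was not called. Without parental array 1 it was 0.98, past the adjusted p and still under 2-fold. The other probe sets of the pair of genes read 0.15 to 0.32 against 0.31 to 1.42 and 0.21 to 1.10 against 0.17 to 1.54, and neither was tested.

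IGF1R gave different changes with different probe sets. The brightest (225330_at) read 9.67, 10.1 and 12.4 on the parental and 12.6, 12.0 and 13.8 on the resistant arrays, a log2 change of 0.26 ± 0.16 (SE). These groups overlapped. Probe set 203628_at read 3.22, 3.07 and 4.75 against 5.68, 7.45 and 6.38. Here all resistant values lay above the parental ones, and the log2 change of 0.84 ± 0.22 was past the adjusted p but not the fold threshold. It was called without parental array 3, at 1.04 ± 0.19. The changes of 203627_at and 243358_at were 0.13 ± 0.18 and 0.56 ± 0.28, with overlapping groups, and 208441_at stayed between 0.21 and 0.63. The probe sets of IGF1R thus all pointed upward where tested, by 1.10-fold to 1.79-fold.

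All 5 probe sets of INSR, the insulin receptor gene, were tested, and all changes lay above 0, from 0.50 to 1.56. The groups were apart for 4 of them. The brightest (213792_s_at) read 3.68, 3.78 and 2.12 on the parental arrays and 4.73, 4.62 and 6.08 on the resistant arrays. Every resistant value was above every parental one, and the log2 change was 0.72 ± 0.26 (SE). The largest change belonged to 226216_at, which read 1.97, 0.45 and 0.86 against 2.66, 2.33 and 3.16 (1.56 ± 0.49). Its parental values spread widely around the median. None of the 5 was past the adjusted p in the 6-array fit, and without parental array 1 only 226216_at was called, at 2.11. The changes of the remaining probe sets were 0.93 ± 0.29 for 226212_s_at, 0.51 ± 0.26 for 226450_at and 0.50 ± 0.46 for 207851_s_at. Transcript isoforms of the receptor cannot be told apart with these signals.

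**Figure D2:**
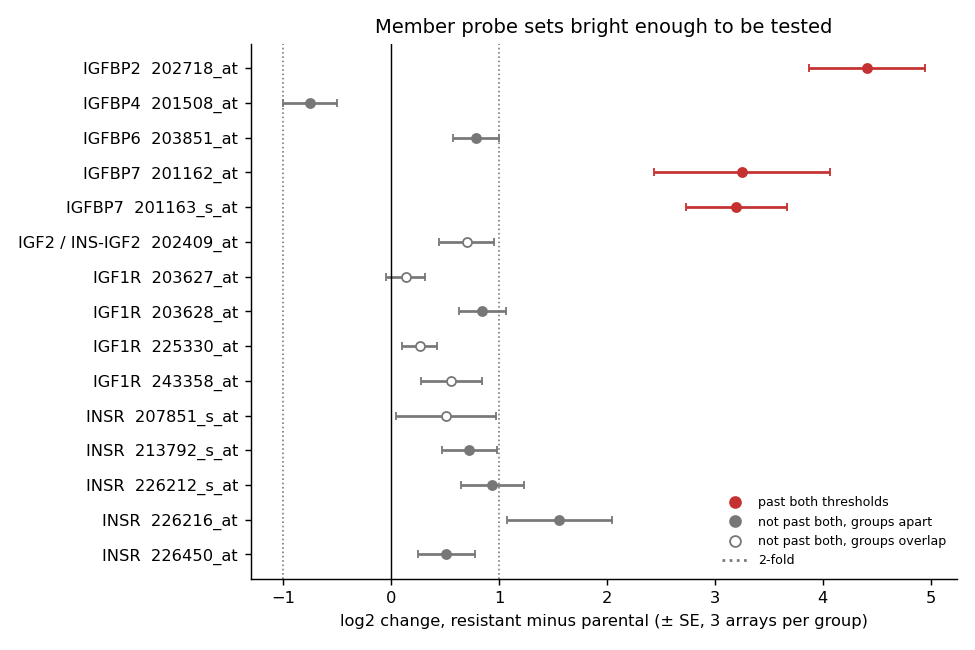
Log2 change (resistant minus parental, horizontal axis) with its standard error for the 15 member probe sets that were tested, with dotted lines at 2-fold. Red points, for IGFBP2 and both tested probe sets of IGFBP7, were past both thresholds, filled grey points had groups that did not overlap and open grey points had overlapping groups. IGFBP4 is the only probe set left of 0, at -0.76.

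The order of the 7 tested genes by log2 change of the brightest probe set was IGFBP2, IGFBP7, IGFBP6, INSR, IGF2 with INS-IGF2, IGF1R and IGFBP4. Within their standard errors IGFBP6 (0.79), INSR (0.72) and IGF2 with INS-IGF2 (0.70) could not be ordered, whereas IGFBP2 and IGFBP7 lay above them and IGFBP4 below 0. Differences between the changes of 2 genes were not tested. All changes of tested member probe sets kept their sign under every alternative fit in which they were tested.

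The tested probe sets whose log2 signal followed that of IGFBP2 most closely over the 6 arrays belonged to TFDP2 (Pearson's r 0.999), GJB1, GLUL, TSPAN8 and ZNF275. GJB1, the gap junction gene connexin 32, read 2.28, 1.02 and 2.65 on the parental and 13.1, 12.8 and 12.4 on the resistant arrays. TSPAN8, a tetraspanin of gut epithelium, read 172, 112 and 184 against 388, 346 and 389. All of these genes shared with IGFBP2 the lowest value on parental array 2, which the choice by r over these same arrays favours. Such likeness was common, since 1888 of 26562 probe sets (7.11%) reached an r of at least 0.9, and these points share arrays and scaling.

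The rest of the axis was followed in 74 partner genes in 7 lists by role, of which 69 had a probe set and 48 a tested one. By the brightest tested probe set of each gene, 5 rose and 4 fell at an adjusted p below 0.05, and 39 did not pass. Over the 11849 genes with a tested probe set 7.37% were higher and 5.05% lower by that rule. The median log2 change of the 48 was -0.06, beside 0.0151 over those genes. The lists were chosen by role, also with earlier results of these data known. Without parental array 3, calls at both thresholds rose over the whole table, from 735 to 1242 probe sets higher and from 505 to 998 lower. The list counts without that array use the adjusted p alone, so this rise is not their background. The share over all genes by that rule without that array is not given here, and nothing is read from these list counts. SOS2, TXNIP and CCN1 are named from those counts after their values had been seen.

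Among other ligands and receptors, 0 of 2 tested genes passed the test in limma by the brightest probe set, with 0 at an unadjusted p below 0.05. IGF1 had dim signals. Its brightest probe set, 209542_x_at, varied widely within a group, with a change of -1.92 ± 1.10. The other tested one, 211577_s_at, read 1.64, 1.49 and 1.63 on the parental and 0.11, 1.09 and 0.19 on the resistant arrays. Its groups did not overlap, and its change of -2.49 ± 0.86 did not pass. Both of these IGF1 probe sets passed the filter only through the parental arrays, so their changes are given as a description. IGF2R, which clears IGF2 into lysosomes, gave -0.19 ± 0.21, and without parental array 3 it was past the test as lower, at -0.44 (limma adjusted p = 0.0251). The insulin gene INS read at most 0.12 and IGFALS, the serum stabiliser of IGF complexes, at most 0.76. Of 3 tested genes in the list of binding protein proteases and their inhibitors, which also held other proteases of the axis, FURIN fell. This proprotein convertase processes pro-IGF1R and pro-IGF2. It read 6.18, 4.59 and 4.92 on the parental and 2.46, 2.55 and 3.46 on the resistant arrays, and all resistant values were lower (-0.90 ± 0.22, limma adjusted p = 0.0295). Its p was above 0.05 when parental array 1 or 2 or resistant array 1 or 2 was left out (highest 0.131 over all alternatives, in the methods' t-test). Of the RNA-binding proteins that carry IGF2 messenger RNA, IGF2BP2 (0.27 ± 0.16) and IGF2BP3 (-0.27 ± 0.13) did not pass in limma, with 0 at an unadjusted p below 0.05.

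The adaptors that connect the receptors to downstream kinases held the smallest p-values of the signalling lists. Of 11 tested, GRB14 rose and IRS2 fell. GRB14, an adaptor that inhibits the insulin receptor kinase, read 6.57, 6.73 and 7.19 on the parental and 16, 18.0 and 17.2 on the resistant arrays. The replicates lay close together in both groups, and the log2 change was 1.32 ± 0.15 (limma adjusted p = 0.000646), or 2.50-fold. IRS2, a docking protein of both receptors, read 34.8, 33.6 and 26.9 against 11.4, 12.6 and 12.6. The change was -1.37 ± 0.15 (limma adjusted p = 0.000658), a 2.59-fold fall, and its other probe set fell by 1.17. Both genes were past the test in every alternative in which they were tested. IRS1, the other main docking protein, gave -0.09 ± 0.16 and did not pass. Without parental array 3 the list held 1 gene past the test as higher and 4 as lower, among them SOS2, an activator of RAS (-1.36, limma adjusted p = 0.000106).

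**Figure D3:**
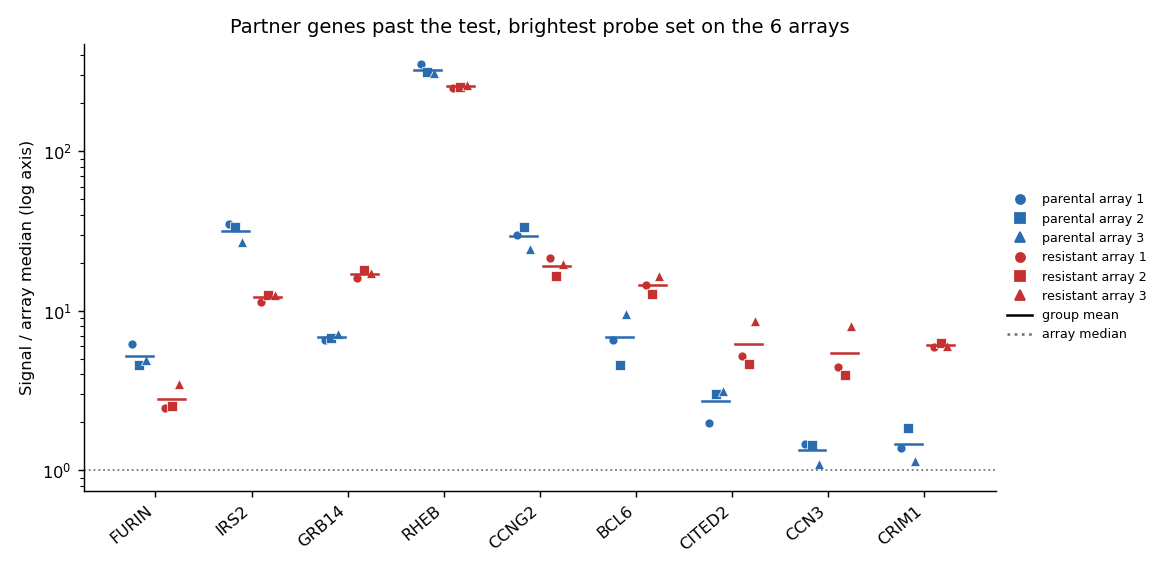
Signal of the brightest probe set of the 9 partner genes past the test on the 6 arrays, as multiples of the array median on a log axis, with parental arrays in blue, resistant arrays in red and bars for group means (n = 3). The groups do not overlap for any of the 9, and CRIM1, GRB14 and IRS2 had the smallest adjusted p of them.

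In the PI3K, AKT and mTOR branch 13 of 14 tested genes did not pass. RHEB, the small GTPase that activates mTOR complex 1, fell from 351, 315 and 309 on the parental to 249, 254 and 262 on the resistant arrays with its brightest probe set, a small change of -0.35 ± 0.09 (limma adjusted p = 0.0374). That probe set is of the type that can read unrelated transcripts. Over the 7 tested RHEB probe sets the change ran from -1.41 to -0.01 and 4 fell past the test. Besides the brightest these were 1555780_a_at (-0.81, limma adjusted p = 0.00354), 213404_s_at (-0.80, limma adjusted p = 0.00474) and 227633_at (-1.41, limma adjusted p = 0.0115). With parental array 1 or 2, or any resistant array, left out, the brightest probe set was no longer past the test (highest adjusted p among the alternatives 0.18). Such fits are not given here for the other RHEB probe sets. Without parental array 3 the branch held 1 gene past the test as higher and 5 as lower.

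Among FOXO factors and genes that insulin represses, 2 of 11 tested genes rose and 1 fell. BCL6, a transcriptional repressor, read 6.61, 4.56 and 9.51 on the parental and 14.5, 12.8 and 16.5 on the resistant arrays (1.14 ± 0.25, limma adjusted p = 0.0207), while its other 2 tested probe sets did not pass (0.69 ± 0.29 and 0.48 ± 0.31). CITED2, a transcriptional co-regulator, read 1.97, 3.03 and 3.14 against 5.20, 4.67 and 8.67 (1.16 ± 0.28, limma adjusted p = 0.0295), and both its tested probe sets rose. In contrast, CCNG2, an atypical cyclin under FOXO control, read 30.1, 33.5 and 24.6 against 21.4, 16.5 and 19.8, a fall (-0.61 ± 0.17, limma adjusted p = 0.0463) that 2 of its 4 tested probe sets showed past the test. Targets in the list thus moved both ways. Neither CCNG2 nor CITED2 was past the test once parental array 1 or 2, or any resistant array, was left out, nor was BCL6 without parental array 1 or any resistant array. The highest adjusted p among the alternatives was 0.186 for CCNG2, 0.188 for CITED2 and 0.175 for BCL6. Without parental array 3 the list held 3 genes past the test as higher and 4 as lower, among them TXNIP, an inhibitor of thioredoxin and of glucose uptake (-1.12, limma adjusted p = 0.000211).

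Of 12 other genes whose proteins carry an IGFBP-type domain 5 were tested, and CRIM1 and CCN3 rose. CRIM1, a membrane protein that binds bone morphogenetic proteins, read 1.38, 1.85 and 1.15 on the parental and 5.97, 6.33 and 6 on the resistant arrays. All resistant values lay far above the parental ones, at a log2 change of 2.09 ± 0.23 (limma adjusted p = 0.000643) or 4.26-fold, and all 3 of its probe sets rose. CCN3, a matricellular protein, read 1.46, 1.45 and 1.10 against 4.44, 3.95 and 8.03 (1.98 ± 0.30, limma adjusted p = 0.00361). Its resistant array 3 stood above the other resistant arrays, and the gene was still past the test with any array left out but not in the methods' t-test (adjusted p = 0.0932). Its other tested probe set, 204501_at, gave 1.90 ± 0.58 and did not pass. That probe set passed the filter only through the resistant arrays, and its change is given as a description. Without parental array 3 the list held 2 genes past the test as higher and 1 as lower, CCN1, another matricellular protein (-1.26, limma adjusted p = 0.00577).

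**Figure D4:**
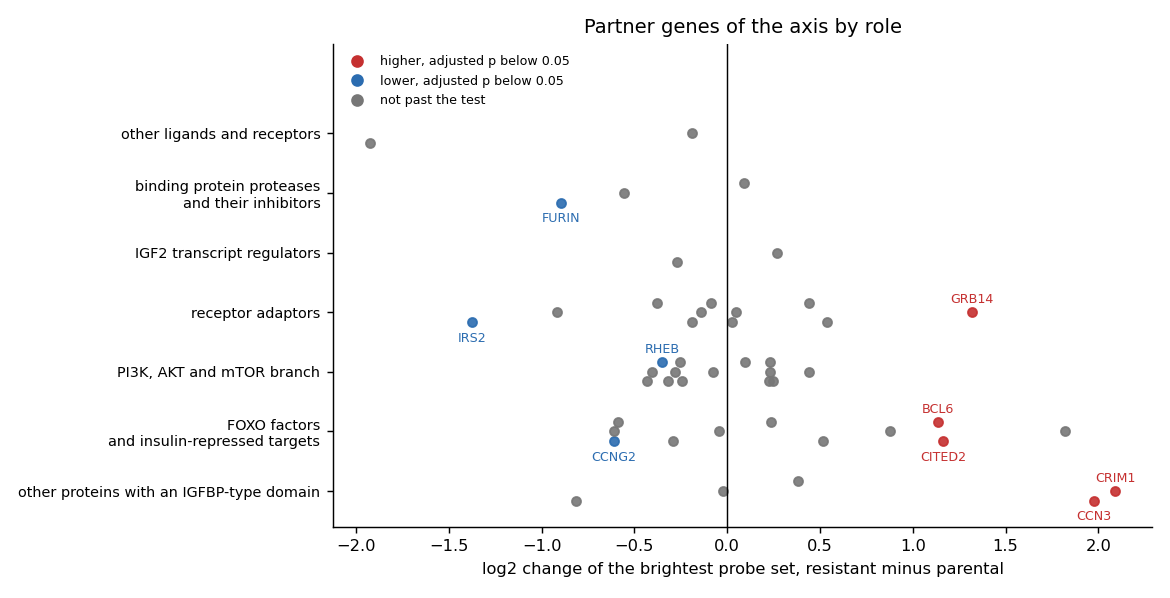
Log2 change (resistant minus parental, horizontal axis) of the brightest tested probe set of the 48 partner genes, grouped by role on the vertical axis (points are offset vertically only for legibility). Red points rose and blue points fell at an adjusted p below 0.05, and grey points did not pass the test. The 9 named genes are those past the test, and IRS2 and GRB14 of the receptor adaptors lie on opposite sides of 0.

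IGFBP7 and several other binding proteins are also made by fibroblasts and endothelial cells, so markers of those cells were read on the same arrays. Of 11 fibroblast and stromal markers, 6 lay below the array median on all arrays and 3 were tested. COL1A1 gave -0.15 ± 0.18, COL1A2 read at most 0.60 and DCN at most 1.23. The brightest probe set of COL3A1 read 0.33, 0.13 and 0.088 on the parental and 0.50, 0.43 and 0.85 on the resistant arrays. These groups did not overlap, but all values lay below the array median and the gene was not tested. LUM, a matrix proteoglycan, read 0.20, 0.35 and 0.27 on the parental and 3.27, 2.92 and 1.504 on the resistant arrays, a log2 change of 3.20 ± 0.55 (SE). Like IGFBP2 it passed the filter only through the resistant arrays, and its change is given as a description. The summed level of this list was 6.98 to 8.16 on parental and 10.8 to 11.5 on resistant arrays. LUM was part of these sums, with means of 0.27 on parental and 2.57 on resistant arrays, as was COL1A1, with 3.67 and 3.31. Of 8 endothelial and leukocyte markers 3 were tested and 1 rose, LYZ, which gut epithelium also expresses (0.74 ± 0.10, limma adjusted p = 0.00227), although its other tested probe set gave 0.22 and did not pass. Its level made up most of the list's sum of 303 to 362 on parental and 503 to 561 on resistant arrays, while PECAM1 gave -0.19 ± 0.27 and PTPRC read at most 0.94. The samples were cultures of the Caco2 line and not tissue. The part of other cells in the IGFBP7 values was not tested, and in bulk RNA more expressing cells and more RNA per cell cannot be told apart.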

How the data were processed

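RNA of parental and MTX-resistant Caco2 cells was hybridised to HG U133 Plus 2.0 arrays, 3 per group, and each sample's title gave its group and number. The authors deposited 1 linear intensity for every probe set of every array, and the submitters' processing notes name MAS5. Its version is not given in the sources used here, nor is its target, and no detection calls came with the intensities. Without controls, 54613 probe sets remained. Each intensity was divided by its array median, as in the study's methods, and log2 transformed, with values of 0 set to 0.05 signal units. Those with a mean of at least 1 array median (26563) were tested with limma 3.58.1 in R 4.3.3 (lmFit, eBayes with an intensity trend, two-sided, Benjamini-Hochberg over all tested, no covariate). Calls needed an adjusted p below 0.05 and a 2-fold change. With 3 arrays a group, exact permutation could not give a p under 0.10 and was not used. The fit was tested on simulated data. No arrays were identical (0 pairs).

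Genes were named from the platform annotation, updated to RefSeq (GRCh38.p14) symbols. Of the probe sets 41091 had 1 symbol (41037 matched to RefSeq), 1801 several and 11721 none listed. A partner or marker gene was represented by its brightest tested probe set. Suffixes _x_at and _s_at mark probe sets that can read unrelated or several transcripts. Named were all members, every partner gene past the test (or the 2 largest changes where none passed), the 5 genes most like IGFBP2 and the defining markers. Members, lists and rules were chosen with earlier results of these data known. MREG, SMARCAL1, IRS1, SOS2, TXNIP, CCN1, INS, IGFALS, CDX2, CLDN4, LUM and LYZ were added once their values had been seen. Alternatives were other scalings, filters and treatments of low signals, no trend in the variance, the replicate block, each array left out, the methods' t-test and other rules for the probe sets of a gene. The methods' t-test was an equal-variance t-test on log2 signals, with the filter used here. It did not repeat the study's own filter or error model.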

Additional observations from a re-analysis of the deposited data

How the results depend on the processing

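The 3 member probe sets called higher became 1 with the filter at 3 array medians, which left IGFBP7 untested, 0 in the methods' t-test and 5 without the fold threshold. With single arrays left out they numbered 2 to 5 and those called lower 0 to 1, both highest without parental array 3. Over the whole table the 735 higher and 505 lower became 127 and 61 in the methods' t-test and 1528 and 1135 without the fold threshold, and ran from 399 to 1242 and from 309 to 998 with an array left out. Of the partner genes, 5 higher and 4 lower became 2 and 1 in the methods' t-test and 3 and 1 without the intensity trend, and 1 was lower with no filter. Leaving out an array gave 3 to 7 higher and 1 to 16 lower, the most without parental array 3. With any other array left out, the 5 higher became 3 or 4 and the 4 lower became 1 or 2. The partner counts, the lower ones above all, were thus unstable. Parental array 3 lay closer to the resistant arrays than the other parental ones did, and whether this bears on the counts was not tested. Over 16 gene values and 267 alternative values, 211 kept their side of the threshold, 54 lost it, 2 gained it and 0 changed sign. The cause of these losses was not tested.

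With the replicate block 1 partner gene was lower, IRS2, and 2 member probe sets were called higher, as 201162_at of IGFBP7 was not. Same-numbered samples did not deviate together (r = -0.018, -0.022 and -0.016 over all probe sets tested), and the labels give them only a number in common. Whether they shared a culture or batch cannot be told from this r. The folds of IGFBP2 and IGFBP7 rest on parental values below the array median, and both treatments of low signals made them smaller and kept their calls.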
